A study of Mus musculus with 6 samples.

Results

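Glycolysis turns glucose into pyruvate in the cytosol, and the genes described here are those of that route and of its ends: glucose carriers, the enzymes of each step, lactate dehydrogenase, the monocarboxylate carriers that move lactate across the cell membrane, the kinases that switch off pyruvate dehydrogenase, and entry enzymes of the pentose phosphate and glycogen branches. They were chosen by gene symbol from a list of 40, and all 40 were rows of the deposited table of 24346 symbols. RNA-seq had been run on primary articular chondrocytes, the cells of joint cartilage, from ICR mice at postnatal day 4. There were 3 libraries of cells stimulated with semaphorin 4D (Sema4D, a ligand of plexin-B receptors) and 3 of cells without it, here called control. Neither the dose, the duration nor the control medium is labelled. Nor is it stated that replicates came from separate cultures or animals, and the p-values below can speak only of library-to-library spread, part of which may be technical.

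Cartilage has no blood vessels, and chondrocytes are known to live at low oxygen and to draw most of their ATP from glycolysis, releasing lactate. Many steps are encoded by several genes whose products differ in tissue and in kinetics, so that a step can change its amount, its isoform make-up, or both. Flux through the route is controlled mainly at glucose entry, at hexokinase and at phosphofructokinase, the last of which is driven by fructose 2,6-bisphosphate made by the PFKFB enzymes.

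Expression was deposited as FPKM, fragments per kilobase of transcript scaled to the library's mapped fragments, a scale on which levels of different genes can be compared. FPKM columns summed to 518901 to 527492 in Sema4D and 492708 to 494123 in control libraries. Depth estimated from the steps of low values was 1.48e+07 to 1.78e+07 fragments in Sema4D and 1.34e+07 to 1.71e+07 in control libraries. All 14 chondrocyte markers averaged at least 1 FPKM, and Col2a1 stood at 8796 ± 372 FPKM in Sema4D and 10506 ± 472 FPKM in control libraries (mean ± SD, n = 3 per group, here and throughout). The 14, of which 13 were lower with Sema4D by the test used below, summed to 12224 to 13259 FPKM in Sema4D and 15222 to 16470.1 FPKM in control libraries, and the 7 fibroblast markers to 7718 to 8065 FPKM in Sema4D and 8362 to 8957 FPKM in control libraries. Of those 7, 3 were lower, 2 (Twist2 and Pdgfra) were higher, by 5.15-fold and 1.85-fold, and 2 did not pass. Twist2 averaged 0.715 FPKM in control libraries. It passed the 1 FPKM filter given below only through the Sema4D libraries, so that its direction was favoured by the filter. The 4 adipocyte markers summed to 25.1 to 29.9 FPKM in Sema4D and 9.61 to 12.6 FPKM in control libraries, nearly all of it Fabp4, which was higher, and the 6 osteoblast markers to 7.02 to 7.36 FPKM in Sema4D and 8.86 to 9.59 FPKM in control libraries. The part of these shifts in the results below was not tested. All 5 endothelial, 4 erythroid and 4 neutrophil markers found were under 1 FPKM in every library. These are bulk cultures, in which fewer cells of a type and less RNA per cell cannot be told apart.

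Most genes of the route were higher with Sema4D. Of the 40 genes, 36 reached a mean of 1 FPKM over the 6 libraries and were tested with limma on log2(FPKM + 1), with Benjamini-Hochberg adjustment over all 11603 genes tested and a threshold of 0.05. Of these 36, 26 were higher, 5 were lower and 5 did not pass. The 26 include Slc2a3, which passed the filter only through the Sema4D libraries, so that its direction was favoured by the filter. Slc2a3 also counts in the 17 and in the 26 genes without overlap given below. The background was large: over all tested genes 46.7% passed by the same rule, 24.5% as higher and 22.2% as lower. By both the threshold and a ratio of mean FPKM over 1.5, 17 of the 36 were higher, against 7.74% of all tested genes, and 2 were lower, against 5.62%. The median log2 fold change was 0.54 over the 36 and 0.01 over all tested genes. In 26 of the 36 every Sema4D library stood above every control library and in 8 every one stood below, where 29.6% and 27% of all tested genes did. Together the 40 genes held 1.88%, 1.91% and 1.95% of the summed FPKM in the Sema4D libraries, against 1.35%, 1.37% and 1.38% in the control libraries.

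**Figure D1:**
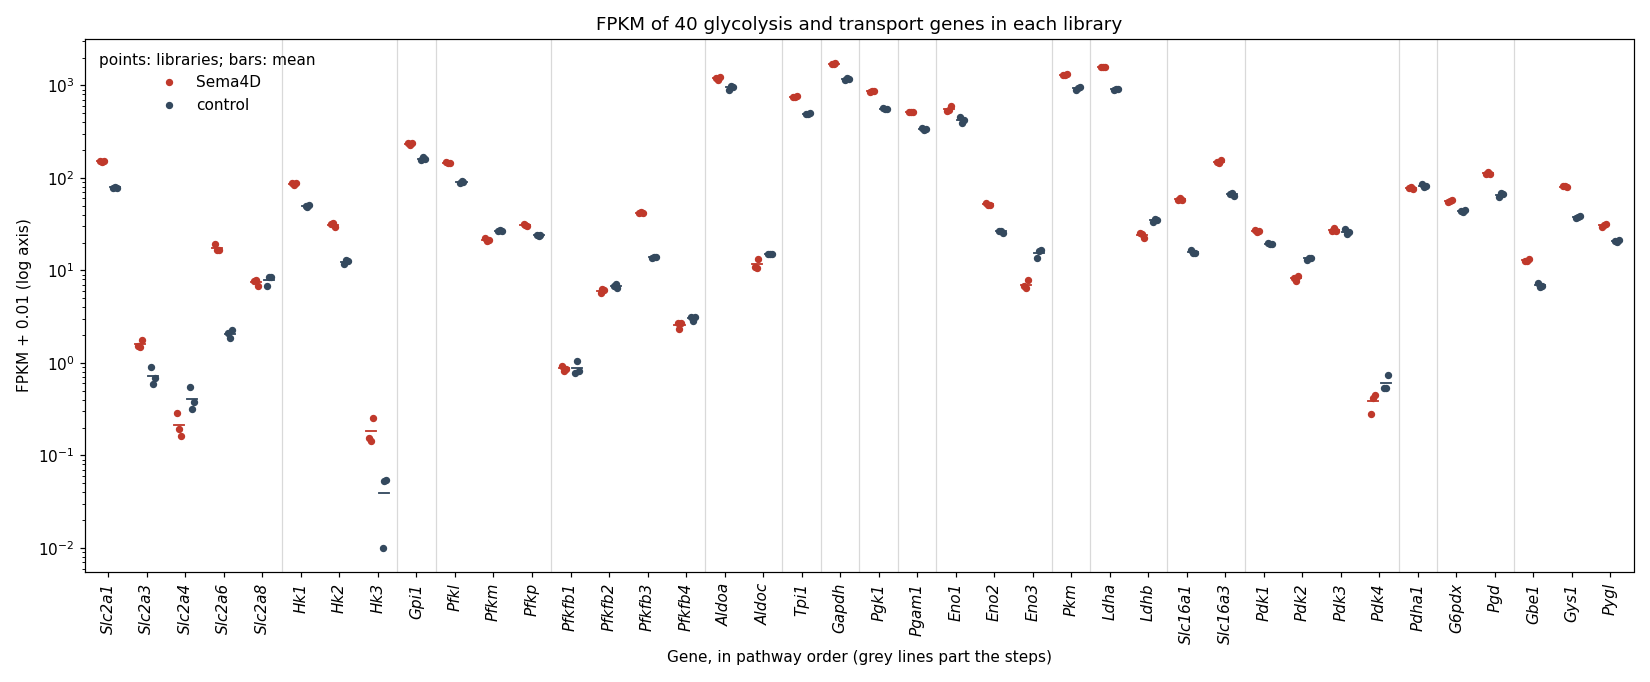
FPKM of each of the 40 genes (log axis, 0.01 added so that a 0 can be drawn) in the 3 Sema4D and 3 control libraries, in pathway order; points are libraries and short bars are means. Means span from under 1 FPKM in both groups for Hk3, Slc2a4, Pfkfb1 and Pdk4 to over 1000 FPKM for Gapdh. Replicates of a group lie close together in the abundant genes.

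The falls were among minor isoforms. In 9 families the listed isoforms with the highest mean level were Slc2a1, Hk1, Pfkl, Pfkfb3, Aldoa, Eno1, Ldha, Slc16a3 and Pdk3. Eno1b, a copy of Eno1 outside the list, stood above Eno1 in every library, as given below. In Sema4D replicate 1 Pdk1 stood above Pdk3, at 27.4 against 26.4 FPKM. Of these 9 leading isoforms 8 were higher with Sema4D and 1, Pdk3, did not pass. Of the 15 tested isoforms that did not lead, 7 were higher, 5 lower and 3 did not pass. Over all tested genes 24.5% were higher and 22.2% lower. The 7 include Slc2a3, which passed the filter only through the Sema4D libraries. All 5 falls among the 36 genes (Pfkm, Aldoc, Eno3, Ldhb and Pdk2) were thus of non-leading isoforms. A difference in calls between leading and other isoforms was not tested. Of the 7 steps read from 1 gene, 6 were higher and Pdha1 did not pass, and all 5 genes of the pentose phosphate and glycogen branches were higher.

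The upstream sequences of 6 of these genes are shown, chosen after their values were seen: Slc2a6, Hk2, Slc16a1 and Slc16a3, with large rises at the entry and exit of the route, and the lactate dehydrogenase pair, Ldha and Ldhb, whose members went in opposite directions. They are RefSeq sequences of GRCm38.p6, the assembly of mm10, read 5′ to 3′ on the gene's strand and ending at the base before the annotated start, with bases of any exon annotated in GENCODE M21 left off. Capitals mark ACGTG on either strand, the core of the element bound by hypoxia-inducible factors; CACGTG, the E-box, holds it on both strands.
Slc2a6: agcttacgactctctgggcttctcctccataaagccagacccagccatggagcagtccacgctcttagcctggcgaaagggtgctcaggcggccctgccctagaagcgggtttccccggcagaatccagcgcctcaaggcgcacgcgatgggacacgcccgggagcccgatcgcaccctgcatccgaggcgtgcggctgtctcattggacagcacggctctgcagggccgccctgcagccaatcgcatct
Hk2: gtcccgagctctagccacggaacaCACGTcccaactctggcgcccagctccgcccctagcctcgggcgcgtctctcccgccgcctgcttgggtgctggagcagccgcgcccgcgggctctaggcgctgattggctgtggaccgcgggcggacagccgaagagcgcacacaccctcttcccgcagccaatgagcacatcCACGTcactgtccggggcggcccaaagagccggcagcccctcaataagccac
Slc16a1: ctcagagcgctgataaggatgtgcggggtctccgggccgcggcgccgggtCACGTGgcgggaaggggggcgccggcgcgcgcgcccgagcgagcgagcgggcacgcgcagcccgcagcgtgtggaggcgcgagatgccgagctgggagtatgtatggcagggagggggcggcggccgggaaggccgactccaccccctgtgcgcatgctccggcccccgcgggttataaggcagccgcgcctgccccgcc
Slc16a3: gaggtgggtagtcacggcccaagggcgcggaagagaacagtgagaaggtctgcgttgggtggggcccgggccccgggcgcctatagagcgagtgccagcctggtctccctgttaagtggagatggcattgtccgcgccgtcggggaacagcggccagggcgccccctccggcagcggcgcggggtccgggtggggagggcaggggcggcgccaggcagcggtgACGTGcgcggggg
Ldha: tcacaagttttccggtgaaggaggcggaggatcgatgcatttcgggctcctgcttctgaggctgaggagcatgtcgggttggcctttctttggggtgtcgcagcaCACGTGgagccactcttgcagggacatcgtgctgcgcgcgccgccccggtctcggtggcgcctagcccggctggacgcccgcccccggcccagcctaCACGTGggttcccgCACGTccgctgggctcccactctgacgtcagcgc
Ldhb: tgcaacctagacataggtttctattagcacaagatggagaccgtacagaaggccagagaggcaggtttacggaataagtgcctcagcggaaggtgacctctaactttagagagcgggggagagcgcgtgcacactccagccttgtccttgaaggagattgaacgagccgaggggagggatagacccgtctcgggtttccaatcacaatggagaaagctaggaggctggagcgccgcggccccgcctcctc
They lie at chr2:27027999-27028248 on the minus strand, chr6:82774455-82774704 on the minus strand, chr3:104638414-104638663 on the plus strand, chr11:120948817-120949052 on the plus strand, chr7:46845554-46845803 on the plus strand and chr6:142507958-142508207 on the minus strand. The stretches of Ldha and Slc16a3 lie inside the span of their gene, upstream of a start that is not its outermost one. That of Slc16a3 is 236 bases long, since bases of an annotated exon were left off. The 3′ end of the Slc2a6 stretch, at 27027999, also lies just inside the span of its gene, which reaches 27028000. For Ldha, which has 2 annotated starts in the table, the first listed is shown. Counting both strands, ACGTG occurred 5 times in the Ldha stretch, 2 times in those of Hk2 and Slc16a1, 1 time in that of Slc16a3 and 0 times in those of Ldhb and Slc2a6.

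Over windows of 250 bases before each start, 38 of the 40 genes had a sequence (Slc2a3 and Slc2a4 were not matched). Of these, 16 (42.1%) held ACGTG in at least 1 window, against 18.5% of all 27025 genes with a window and 25.7% of the 8826 of them that were tested for expression. It was present in 11 of the 25 genes that were higher with Sema4D and in 5 of the other 13. GCGTG, the other core of the same element, was in 26 of the 38 (68.4%), against 51.7% of the tested genes, with 15 of the 25 higher genes and 11 of the other 13. CACGTG was in 6 (15.8%), against 10.3% of the tested genes, with 3 of the 25 and 3 of the 13. All were counted on both strands, and a match is a string of letters, not a bound site. A gene with more annotated starts has more windows in which to match, up to 4 in the 38 (Pfkm and Pfkfb1). The 27025 genes had 32851 windows, and the shares were not adjusted for the number of windows.

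RNA of the glucose carriers was higher in sum, and glucose uptake was not measured. Summed over the 5 facilitative carriers, the level was 181, 175 and 179 FPKM in the Sema4D libraries, against 88.8, 90.8 and 90.3 FPKM in the control libraries. The groups were far apart, by a ratio of 1.98. Slc2a1 (GLUT1, chromosome 4, 119108745 to 119137330 in GRCm38.p6), the basal carrier of most cells, made up most of this sum. It had 153, 149 and 154 FPKM in the Sema4D libraries, against 78.5, 79.6 and 78.5 FPKM in the control libraries (log2 fold change 0.94, SE 0.026, limma adjusted p = 2.91e-08). Slc2a6 (GLUT6, chromosome 2, 27021363 to 27028000), a carrier found on internal membranes and known to rise in activated macrophages, had 19.5, 16.5 and 16.6 FPKM in the Sema4D libraries, against 2.07, 1.84 and 2.26 FPKM in the control libraries (log2 fold change 2.60, SE 0.0775, limma adjusted p = 4.47e-08). That was the largest rise of the 36 genes, 8.53-fold by the ratio of means, and took Slc2a6 past Slc2a8 in every Sema4D library. The 7 macrophage markers summed to 19.8 to 22.3 FPKM in Sema4D and 23.2 to 30.7 FPKM in control libraries. Most of that was Lyz2, which was lower, at 15.9 ± 1.27 FPKM in Sema4D and 22.4 ± 3.55 FPKM in control libraries. Of the 3 tested 2 were lower, of which Tyrobp passed the filter only through the control libraries. The other, Cd68, did not pass, at 3.01 ± 0.515 FPKM in Sema4D and 2.65 ± 0.582 FPKM in control libraries. Adgre1, Mrc1 and Ptprc were under 1 FPKM in every library. Adgre1 stood above in every Sema4D library, with 0.75, 0.706 and 0.563 FPKM in the Sema4D libraries, against 0.268, 0.264 and 0.0784 FPKM in the control libraries, and its part, and that of the other markers, in the rise of Slc2a6 was not tested.

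Slc2a3 (GLUT3), a high-affinity carrier, was higher at a low level, with 1.52, 1.48 and 1.75 FPKM in the Sema4D libraries, against 0.887, 0.579 and 0.682 FPKM in the control libraries (log2 fold change 0.59, SE 0.0969, limma adjusted p = 0.00127). Its mean over the 6 libraries passed the filter through the Sema4D libraries alone, so that its direction was favoured by the filter. Slc2a8, an intracellular carrier, had 7.65, 7.89 and 6.84 FPKM in the Sema4D libraries, against 6.83, 8.43 and 8.49 FPKM in the control libraries, groups that overlapped (limma adjusted p = 0.516). Slc2a4 (GLUT4), the insulin-responsive carrier of muscle and fat, was under the filter at 0.276, 0.182 and 0.151 FPKM in the Sema4D libraries, against 0.538, 0.306 and 0.365 FPKM in the control libraries. Of the carrier sum, Slc2a1 held 85% ± 0.884 in Sema4D and 87.7% ± 0.711 in control libraries, and Slc2a6 held 9.82% ± 0.786 in Sema4D and 2.29% ± 0.239 in control libraries. In all Sema4D libraries the Slc2a1 share was below, and the Slc2a6 share above, that of all control libraries, each with the smallest exact permutation p that 3 against 3 libraries allow, 0.1 (two-sided), as in every share and ratio below unless another p is given.

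Hexokinase, which traps glucose as glucose 6-phosphate, had a total of 121, 117 and 117 FPKM in the Sema4D libraries, against 60.8, 61.4 and 64 FPKM in the control libraries, a ratio of 1.9. Hk1, the widely expressed form, had 88.9, 84.7 and 87.3 FPKM in the Sema4D libraries, against 49.2, 48.4 and 51.4 FPKM in the control libraries (log2 fold change 0.80, SE 0.0342, limma adjusted p = 3.93e-07). Hk2, the inducible form (chromosome 6, 82725025 to 82774454), had 31.5, 32.4 and 29.3 FPKM in the Sema4D libraries, against 11.7, 12.9 and 12.5 FPKM in the control libraries (log2 fold change 1.26, SE 0.0516, limma adjusted p = 2.9e-07). Both rose, and the ratio of Hk2 to Hk1 was higher in every Sema4D library: log2 Hk2 over Hk1, with 1 FPKM added to each, was -1.46 ± 0.0927 in Sema4D and -1.92 ± 0.085 in control libraries, a difference of 0.47. Of the total, Hk1 held 73.6% ± 1.25 in Sema4D and 80% ± 1.03 in control libraries. Hk3, a form of blood cells, was listed at 0.145, 0.133 and 0.245 FPKM in the Sema4D libraries, against 0, 0.0426 and 0.0443 FPKM in the control libraries, too low to test.

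**Figure D2:**
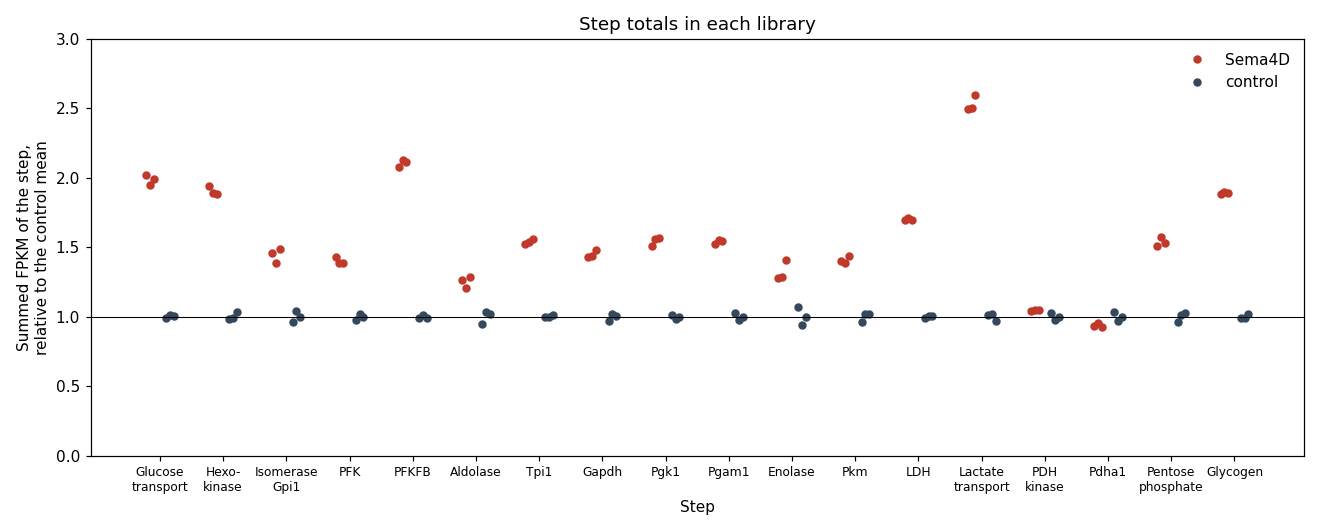
Summed FPKM of the genes of each step in each library, divided by that step's mean over the 3 control libraries; red points are Sema4D and dark points control libraries. Lactate transport is highest, at 2.53 on average, and PDH kinase and Pdha1 lie lowest, at 1.05 and 0.94.

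Across the 18 steps, 17 totals were above in all Sema4D libraries and 1, Pdha1, was below. Of all tested genes, taken singly, 29.6% were above and 27% below in this way. The PDH kinase total, at a ratio of 1.05, counts among the 17 but changed sign after scaling to equal column totals. By ratio of means, lactate transport stood at 2.53, the PFKFB enzymes at 2.11, glucose transport at 1.98, hexokinase at 1.9, the glycogen genes at 1.89 and lactate dehydrogenase at 1.7. From the isomerase to pyruvate kinase the ratios lay between 1.25 for aldolase and 1.54 for phosphoglycerate kinase. These are ratios of step totals, and differences between steps were not tested.

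Gpi1, the isomerase that makes fructose 6-phosphate, had 236, 225 and 241 FPKM in the Sema4D libraries, against 156, 168 and 162 FPKM in the control libraries (log2 fold change 0.53, SE 0.0375, limma adjusted p = 8.74e-06). Phosphofructokinase, the committed step, is a tetramer of 3 subunit types named after liver, muscle and platelet. The liver type Pfkl led, with 148, 144 and 145 FPKM in the Sema4D libraries, against 87.4, 93.6 and 90.6 FPKM in the control libraries (log2 fold change 0.68, SE 0.0321, limma adjusted p = 7.06e-07). Pfkp, the platelet type, had 31.9, 30.8 and 30 FPKM in the Sema4D libraries, against 24.4, 23.6 and 24 FPKM in the control libraries (log2 fold change 0.35, SE 0.0355, limma adjusted p = 7.4e-05). Pfkm, the muscle type, went the other way, with 22.3, 20.7 and 21.4 FPKM in the Sema4D libraries, against 26.8, 27.2 and 26.8 FPKM in the control libraries (log2 fold change -0.32, SE 0.037, limma adjusted p = 0.000179). In none of these 3 genes did the groups overlap. Of the total, Pfkl held 73.6% ± 0.295 in Sema4D and 64% ± 0.864 in control libraries, and Pfkm held 10.8% ± 0.228 in Sema4D and 19.1% ± 0.232 in control libraries. Log2 Pfkp over Pfkl was -2.20 ± 0.0278 in Sema4D and -1.87 ± 0.0724 in control libraries, a difference of -0.33.

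Of the 4 bifunctional PFKFB enzymes, which make and break the activator of phosphofructokinase, 1, Pfkfb3, passed as higher. It encodes the form with the strongest bias to the kinase reaction (chromosome 2, 11471430 to 11554071) and had 41.7, 42.8 and 42.2 FPKM in the Sema4D libraries, against 13.6, 13.9 and 13.9 FPKM in the control libraries (log2 fold change 1.54, SE 0.0318, limma adjusted p = 4.9e-09). The ratio of means was 3.05, and the libraries of a group lay close together. Pfkfb2, known from heart, had 5.7, 6.29 and 6.18 FPKM in the Sema4D libraries, against 6.82, 7.06 and 6.48 FPKM in the control libraries (limma adjusted p = 0.0629). Pfkfb4 had 2.68, 2.3 and 2.69 FPKM in the Sema4D libraries, against 3.17, 2.83 and 3.15 FPKM in the control libraries (limma adjusted p = 0.0644). Both stood below control in every library without passing the threshold, and both passed it as lower after quantile normalization and after equal column totals. Pfkfb1, the liver form, was under the filter at 0.909, 0.819 and 0.86 FPKM in the Sema4D libraries, against 0.775, 1.05 and 0.818 FPKM in the control libraries, with overlapping groups. Of the summed PFKFB level, Pfkfb3 held 81.7% ± 0.365 in Sema4D and 56.3% ± 0.673 in control libraries. Log2 Pfkfb3 over Pfkfb4 was 3.60 ± 0.106 in Sema4D and 1.87 ± 0.0813 in control libraries, a difference of 1.73, the largest shift of the 9 isoform pairs compared.

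**Figure D3:**
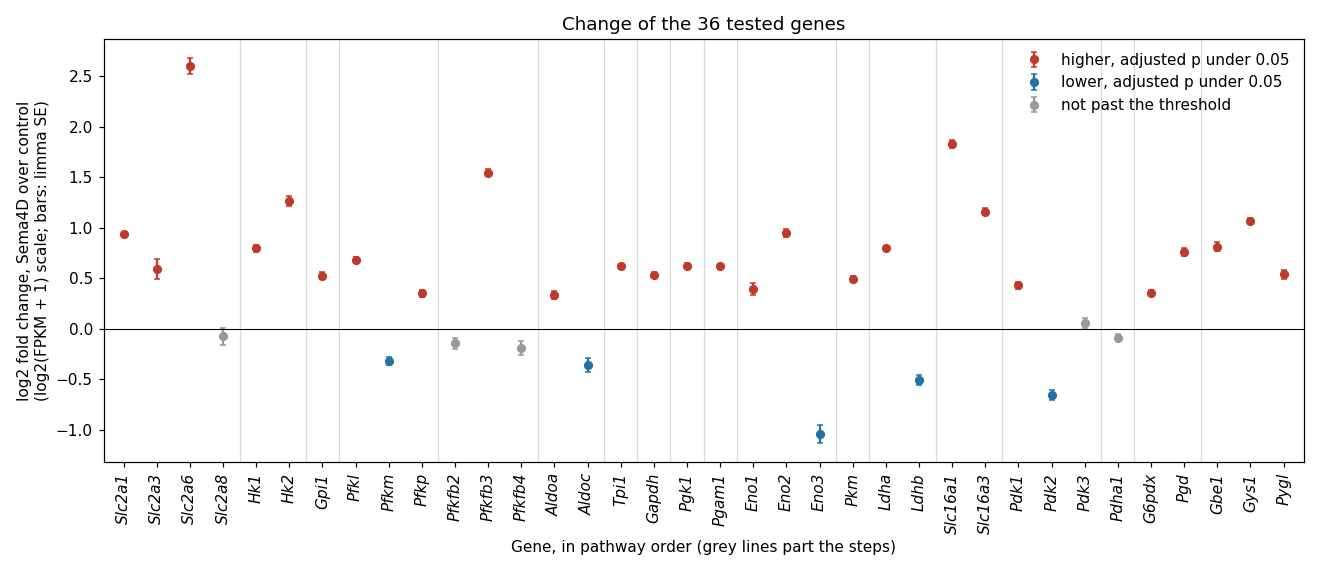
Log2 fold change of Sema4D over control, on the log2(FPKM + 1) scale, for the 36 tested genes in pathway order; bars are limma standard errors and colour gives the call. Slc2a6, Slc16a1 and Pfkfb3 stand highest at 2.60, 1.83 and 1.54, and Eno3 lowest at -1.04.

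Aldolase splits the hexose into trioses. Aldoa, the main form, had 1216, 1157 and 1230.0 FPKM in the Sema4D libraries, against 903, 982 and 973 FPKM in the control libraries (log2 fold change 0.33, SE 0.0393, limma adjusted p = 0.000185), the smallest log2 fold change of the 26 higher genes. Aldoc, the brain form, had 10.9, 10.7 and 13.2 FPKM in the Sema4D libraries, against 15.2, 15.1 and 15.1 FPKM in the control libraries (log2 fold change -0.36, SE 0.071, limma adjusted p = 0.00353). The groups did not overlap in either gene, and of the total Aldoa held 99% ± 0.0912 in Sema4D and 98.4% ± 0.0768 in control libraries. The exons of Aldoa overlap those of another gene on the opposite strand, which was at 0.23 FPKM on average.

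The next 4 enzymes were each read from 1 gene, and all rose. Tpi1, which interconverts the 2 trioses, had 749, 756 and 770.1 FPKM in the Sema4D libraries, against 490.3, 489.9 and 498 FPKM in the control libraries (log2 fold change 0.62, SE 0.0237, limma adjusted p = 1.9e-07). Gapdh, often used as a reference gene and the most abundant of the 40 in both groups, had 1687, 1696 and 1742 FPKM in the Sema4D libraries, against 1145, 1202 and 1187 FPKM in the control libraries (log2 fold change 0.54, SE 0.028, limma adjusted p = 1.34e-06). It was 1.45-fold higher by the ratio of means. Pgk1, the first ATP-yielding step, had 843, 874 and 875 FPKM in the Sema4D libraries, against 568, 550.3 and 559.6 FPKM in the control libraries (log2 fold change 0.63, SE 0.0264, limma adjusted p = 3.48e-07). Pgam1, the mutase after it, had 512, 521 and 519 FPKM in the Sema4D libraries, against 344, 329 and 336 FPKM in the control libraries (log2 fold change 0.62, SE 0.026, limma adjusted p = 3.32e-07). In all 4 genes every Sema4D library was above every control library. Gapdh and its neighbours in the route have many processed pseudogene copies in the mouse genome, and how the authors' counting treated reads shared with them was not given in the sources used here.

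Enolase, which makes phosphoenolpyruvate, was higher in total. Eno1, the ubiquitous form, had 532, 538 and 594 FPKM in the Sema4D libraries, against 455, 391 and 419.8 FPKM in the control libraries (log2 fold change 0.39, SE 0.0605, limma adjusted p = 0.000881). Its transcript has a near-identical copy, the separate gene Eno1b, with 1376 of 1385 aligned bases (99.4%) the same between the first listed GENCODE M21 transcript of each. Eno1b had 866, 822 and 826 FPKM in the Sema4D libraries, against 615, 730.4 and 673 FPKM in the control libraries, more than Eno1 in all 6. Within the control group, the library with the least Eno1 had the most Eno1b and the one with the most Eno1 the least Eno1b. Their sum was steadier, at 1398, 1360.3 and 1419.9 FPKM in the Sema4D libraries, against 1070.0, 1122 and 1093 FPKM in the control libraries, 1.27-fold higher with Sema4D where Eno1 alone was 1.31-fold higher. How reads were split between the copies is not given in the sources used here, so the level of Eno1 by itself is uncertain. With Eno1b the enolase total was 1459, 1418 and 1479 FPKM in the Sema4D libraries, against 1110.5, 1165 and 1135 FPKM in the control libraries.

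The minor enolases moved in opposite directions. Eno2, the form of neurons, had 54.1, 50.7 and 51.2 FPKM in the Sema4D libraries, against 26.9, 26.9 and 25.6 FPKM in the control libraries (log2 fold change 0.95, SE 0.0379, limma adjusted p = 2.49e-07). Eno3, the form of muscle (chromosome 11, 70653125 to 70662513), had 6.7, 6.48 and 7.87 FPKM in the Sema4D libraries, against 13.5, 16.4 and 16.5 FPKM in the control libraries (log2 fold change -1.04, SE 0.0901, limma adjusted p = 2.9e-05), the largest fall of the 36 genes, 2.21-fold by the ratio of means. The ratio of Eno2 to Eno3 FPKM was 8.07, 7.83 and 6.5 in the Sema4D libraries, against 1.99, 1.64 and 1.55 in the control libraries. Muscle markers were low: the 7 summed to 8.39 to 11.1 FPKM in Sema4D and 11.7 to 13.2 FPKM in control libraries, 1 of 3 tested, Tnnt3, was lower, and Myod1, Myog, Ckm and Myh3 were under 1 FPKM in every library. Their part in the falls of Eno3 and Pfkm was not tested. The 5 neural markers summed to 1.47 to 2.24 FPKM in Sema4D and 1.62 to 2.63 FPKM in control libraries, with Snap25 at 0 in every library and the 1 tested not past the threshold. Log2 Eno2 over Eno1 was -3.39 ± 0.118 in Sema4D and -3.94 ± 0.113 in control libraries, a difference of 0.55.

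Pyruvate kinase was read from Pkm, whose 2 splice forms, PKM1 and PKM2, share 1 row of the table and were not separated. It had 1303, 1292 and 1335 FPKM in the Sema4D libraries, against 891, 948 and 951 FPKM in the control libraries (log2 fold change 0.49, SE 0.0318, limma adjusted p = 4.77e-06). Lactate dehydrogenase came next. Ldha, the M subunit that favours making lactate (chromosome 7, 46842274 to 46855627), had 1570.5, 1585 and 1571 FPKM in the Sema4D libraries, against 899, 905 and 909.9 FPKM in the control libraries (log2 fold change 0.80, SE 0.0221, limma adjusted p = 2.8e-08). Ldhb, the H subunit that favours lactate use (chromosome 6, 142490249 to 142507957), had 25.3, 24.8 and 22.4 FPKM in the Sema4D libraries, against 33.5, 35.7 and 35.1 FPKM in the control libraries (log2 fold change -0.51, SE 0.0508, limma adjusted p = 6.94e-05). The spread within groups was small beside both differences. Of the pair, Ldha made up 98.5% ± 0.0946 in Sema4D and 96.3% ± 0.104 in control libraries. Log2 Ldha over Ldhb was 5.97 ± 0.0892 in Sema4D and 4.66 ± 0.0408 in control libraries, a difference of 1.31. By mean level among the 40 genes Ldha ranked 2 in Sema4D libraries, after Gapdh, and 4 in control libraries, where the ranges of Aldoa, Pkm and Ldha overlapped.

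Both carriers that pass lactate across the membrane rose. Slc16a1 (MCT1, chromosome 3, 104638664 to 104658462), which carries lactate either way with high affinity, had 58.2, 59.9 and 57.4 FPKM in the Sema4D libraries, against 16.7, 15.3 and 15.3 FPKM in the control libraries (log2 fold change 1.83, SE 0.0421, limma adjusted p = 1.03e-08), 3.71-fold by the ratio of means. Slc16a3 (MCT4, chromosome 11, 120948484 to 120959000), the export form of glycolytic cells, had 147, 146 and 156 FPKM in the Sema4D libraries, against 66.4, 68.7 and 64.1 FPKM in the control libraries (log2 fold change 1.16, SE 0.0378, limma adjusted p = 7.77e-08). Slc16a3 led in both groups, but its share was lower, with 71.9% ± 1.12 in Sema4D and 80.8% ± 0.968 in control libraries. Log2 Slc16a3 over Slc16a1 was 1.34 ± 0.0791 in Sema4D and 2.01 ± 0.0863 in control libraries, a difference of -0.67. Bsg (basigin), the membrane partner of both carriers, averaged 699.6 ± 12.4 FPKM in Sema4D and 573 ± 15.3 FPKM in control libraries (log2 fold change 0.29, SE 0.0286, limma adjusted p = 6.91e-05).

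**Figure D4:**
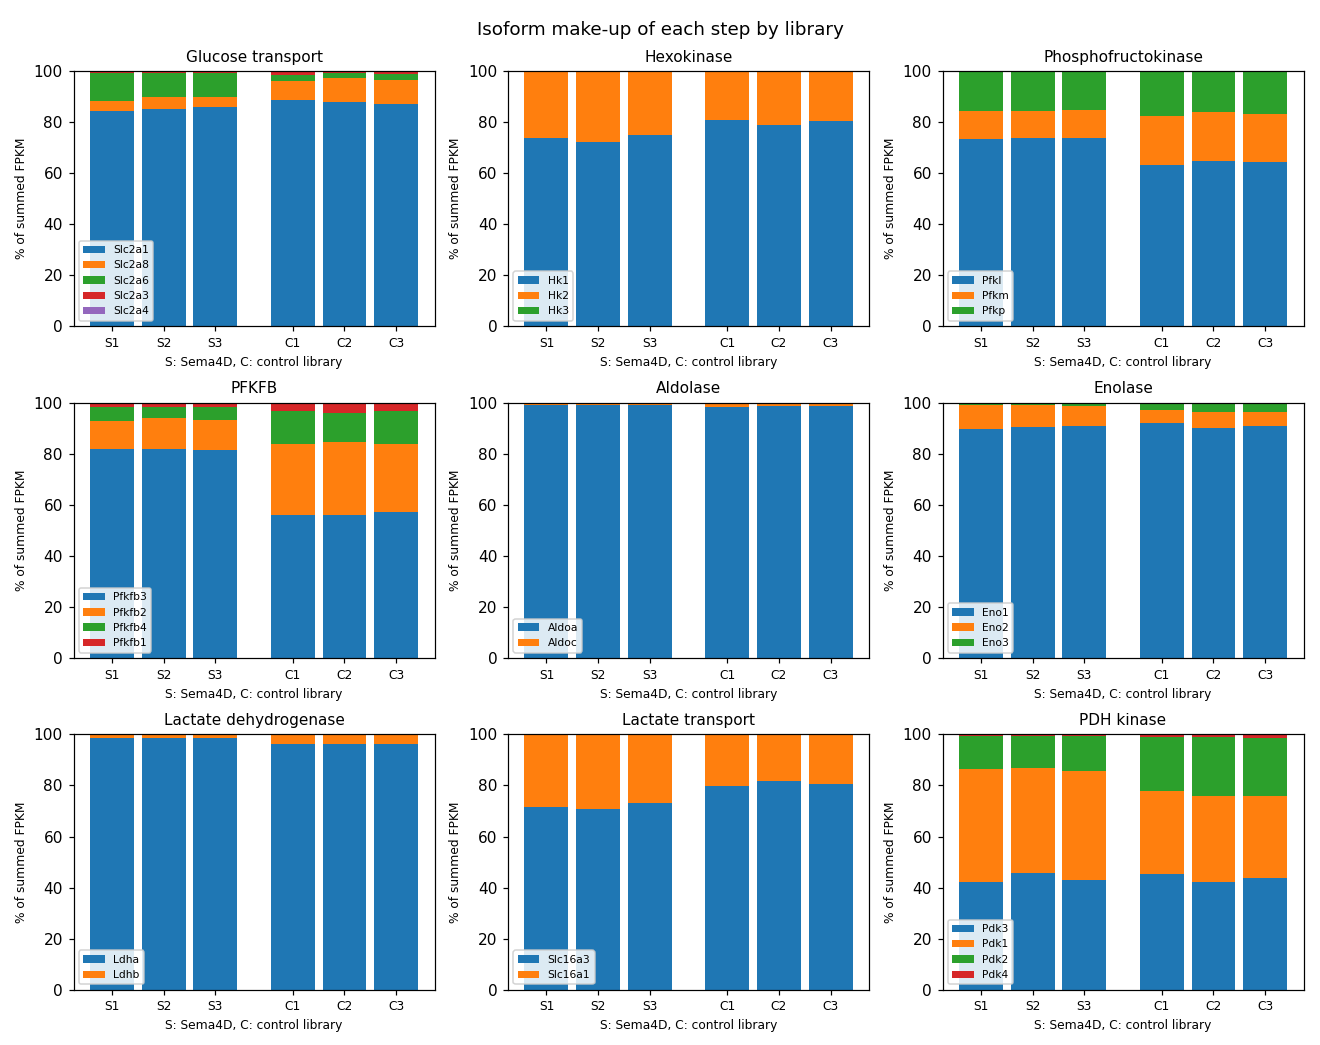
Share of each isoform in the summed FPKM of its step, in percent, for the 9 families with more than 1 gene; each stacked bar is 1 library, Sema4D (S) left of control (C). The Pfkfb3 band fills 81.7% of the Sema4D bars and 56.3% of the control bars on average, while the Aldoa and Ldha bands fill nearly all of theirs.

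At the gate to the mitochondria, 1 kinase rose and 1 fell. The 4 pyruvate dehydrogenase kinases, which switch the enzyme off, summed to 62.3, 62.5 and 62.7 FPKM in the Sema4D libraries, against 61.4, 58.4 and 59.6 FPKM in the control libraries. After scaling to equal column totals the difference changed sign, to -1.49 in rescaled FPKM (exact permutation p = 0.4). Pdk1, a known target of hypoxia-inducible factor, had 27.4, 25.9 and 26.7 FPKM in the Sema4D libraries, against 20, 19.5 and 19.1 FPKM in the control libraries (log2 fold change 0.43, SE 0.0366, limma adjusted p = 2.57e-05). Pdk2, the widely expressed form, had 8.25, 7.72 and 8.64 FPKM in the Sema4D libraries, against 13, 13.7 and 13.7 FPKM in the control libraries (log2 fold change -0.65, SE 0.0503, limma adjusted p = 1.43e-05). Neither pair of groups overlapped. Pdk3, the leading form, had 26.4, 28.5 and 26.9 FPKM in the Sema4D libraries, against 27.9, 24.7 and 26 FPKM in the control libraries, with overlapping groups (limma adjusted p = 0.382). Pdk4, induced by fasting in other tissues, was under the filter at 0.274, 0.404 and 0.445 FPKM in the Sema4D libraries, against 0.524, 0.529 and 0.734 FPKM in the control libraries. Of the total, Pdk1 held 42.6% ± 1.24 in Sema4D and 32.7% ± 0.648 in control libraries, and Pdk2 held 13.1% ± 0.729 in Sema4D and 22.5% ± 1.22 in control libraries. Pdk3 held 43.6% ± 1.68 in Sema4D and 43.8% ± 1.54 in control libraries (exact permutation p = 1). Log2 Pdk1 over Pdk3 was -0.03 ± 0.0916 in Sema4D and -0.40 ± 0.0671 in control libraries, a difference of 0.37.

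Pdha1, the catalytic subunit these kinases act on, had 77.1, 78.9 and 76.3 FPKM in the Sema4D libraries, against 85, 80 and 82 FPKM in the control libraries (log2 fold change -0.09, limma adjusted p = 0.0522). Its groups did not overlap, and it passed the threshold as lower without control replicate 2 (adjusted p = 0.0391) and with each of the 3 other scalings. Its limma adjusted p ran from 0.00314 to 0.131 among all alternatives.

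The branch genes were all higher. G6pdx, the first enzyme of the pentose phosphate pathway and a source of NADPH, had 55.1, 57 and 57.4 FPKM in the Sema4D libraries, against 43.9, 42.8 and 45.1 FPKM in the control libraries (log2 fold change 0.35, SE 0.0326, limma adjusted p = 4.13e-05). Pgd, its second NADPH-making enzyme, had 111, 116 and 111 FPKM in the Sema4D libraries, against 62.1, 68.4 and 67.3 FPKM in the control libraries (log2 fold change 0.76, SE 0.0413, limma adjusted p = 1.66e-06). Gys1, the glycogen synthase outside liver (chromosome 7, 45434839 to 45456617), had 81.6, 81.3 and 79.3 FPKM in the Sema4D libraries, against 37.2, 38.3 and 38.7 FPKM in the control libraries (log2 fold change 1.07, SE 0.0297, limma adjusted p = 2.91e-08), more than double by the ratio of means (2.12). Its exons overlap those of Ruvbl2 on the opposite strand, at 36.9 FPKM on average, as those of Pfkp overlap Pitrm1 (22.6 FPKM), Tpi1 overlap Spsb2 (13.1 FPKM) and Pfkm overlap Senp1 (5.64 FPKM). Without the strand setting, reads of such overlaps cannot be told apart. Gbe1, the branching enzyme, had 12.7, 12.7 and 13.3 FPKM in the Sema4D libraries, against 7.29, 6.65 and 6.77 FPKM in the control libraries (log2 fold change 0.81, SE 0.0479, limma adjusted p = 2.75e-06). Pygl, a glycogen phosphorylase, had 29.6, 30.7 and 31.7 FPKM in the Sema4D libraries, against 20.8, 20.1 and 21.6 FPKM in the control libraries (log2 fold change 0.54, SE 0.0411, limma adjusted p = 1.34e-05). Enzymes of glycogen making and of glycogen breakdown were thus both higher, with no overlap between groups in any of the 3.

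Genes that border the route went both ways. Of 74 tested genes in 8 lists drawn from textbook knowledge, 24 were higher, 24 lower and the rest did not pass, where the background was 24.5% and 22.2%. Of the 24 lower genes 4 (Slc2a5, Slc2a13, Ldhd and Gpd1) averaged under 1 FPKM in Sema4D libraries and passed the filter only through the control libraries, so that their direction was favoured by the filter. Of 9 other sugar carriers 3 were tested. Slc2a10 was lower (log2 fold change -0.25), as were the 2 that the filter favoured, Slc2a5, the fructose carrier (-0.53), and Slc2a13 (-0.23, adjusted p = 0.0487 by limma). Of 8 other tested genes of glycolysis and gluconeogenesis 1 rose and 2 fell (median 0.10). Pcx, pyruvate carboxylase, which feeds pyruvate to oxaloacetate, averaged 37.8 ± 1.3 FPKM in Sema4D and 17.5 ± 0.64 FPKM in control libraries (log2 fold change 1.07, SE 0.0411, limma adjusted p = 2.01e-07). The mitochondrial PEP carboxykinase gene Pck2 (-0.39) and Bpgm (-0.37), which makes 2,3-bisphosphoglycerate, fell.

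Of 5 tested genes of lactate and pyruvate handling 3 rose and 2 fell (median 0.22). Besides Bsg these included Mpc2, a subunit of the mitochondrial pyruvate carrier (-0.28), and Ldhd, a D-lactate dehydrogenase (-0.69), both lower. Ldhd was favoured by the filter as above. Mpc1, a subunit of the same carrier named after its values were seen, was higher (log2 fold change 0.26, limma adjusted p = 0.00186). Of 7 other genes of the pyruvate dehydrogenase complex 1 rose and 1 fell (median -0.04). The fall was of Pdp1, the phosphatase that switches the enzyme back on, which averaged 9.95 ± 0.266 FPKM in Sema4D and 15.4 ± 0.726 FPKM in control libraries (log2 fold change -0.58, SE 0.0459, limma adjusted p = 1.67e-05), and the rise of Dld (0.23). In the rest of the pentose phosphate pathway 2 of 6 rose, Rpia (0.26) and H6pd (0.23), and 4 did not pass (median 0.12).

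Of 15 other glycogen genes 4 rose and 6 fell (median -0.06), with Pgm2 (0.63), and Ppp1r3b, which targets phosphatase to glycogen (0.57), higher and Stbd1, which tethers glycogen to membranes (-0.59), lower. Of 13 genes of side routes that draw on glycolytic sugars and trioses 2 rose and 8 fell (median -0.22). Sord, of the polyol route (-0.56), and Gfpt1, the entry enzyme of hexosamine synthesis (-0.52), were lower.

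Of the known regulators of the route 11 of 17 tested were higher, 2 lower and 4 did not pass (median 0.20). Of all tested genes 24.5% were higher and 22.2% lower. Egln3, a prolyl hydroxylase that marks hypoxia-inducible factors for breakdown and is itself induced by them, had 23.3, 23.6 and 24.5 FPKM in the Sema4D libraries, against 5.79, 4.92 and 4.54 FPKM in the control libraries (log2 fold change 2.03, SE 0.0722, limma adjusted p = 1.29e-07). Epas1, which encodes HIF-2alpha, had 23, 21.8 and 21.6 FPKM in the Sema4D libraries, against 6.67, 6.47 and 7.04 FPKM in the control libraries (log2 fold change 1.58, SE 0.0457, limma adjusted p = 3.68e-08). Egln1, the main oxygen-sensing hydroxylase, averaged 59.4 ± 2.56 FPKM in Sema4D and 26.7 ± 1.29 FPKM in control libraries (log2 fold change 1.12, SE 0.0462, limma adjusted p = 2.96e-07). In all 3 every Sema4D library stood above every control library. The other 8 higher regulators, most of them outside the hypoxia system, had log2 fold changes of 0.14 to 0.84. They included Hif1a, which encodes HIF-1alpha (0.77, limma adjusted p = 4.93e-07), and Vhl (0.68), both named after their values were seen.

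**Figure D5:**
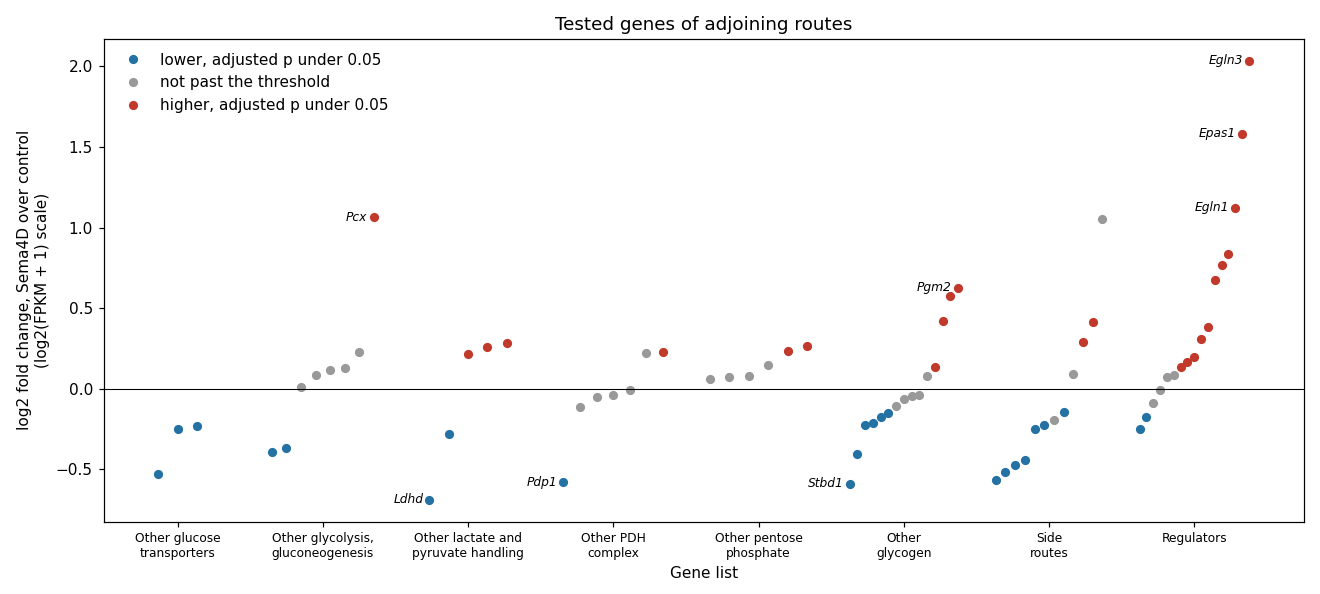
Log2 fold change of Sema4D over control, on the log2(FPKM + 1) scale, of the tested genes in the 8 adjoining lists (1 is not drawn), coloured by call, with the larger called changes named. Most lists spread to both sides of 0, with Egln3 highest at 2.03 and Ldhd lowest at -0.69.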

How the data were processed

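RNA-seq of primary mouse articular chondrocytes was deposited as 1 table of FPKM values, which the authors made on mm10. The submitters' processing notes list Cufflinks 2.2.1, SAMtools 0.1.19, TopHat2 2.0.13 and Bowtie2 2.2.3 without saying what each did, and annotation, strand setting, filters and scaling are not given in the sources used here. This table held 6 columns, 3 Sema4D and 3 control libraries by their titles. Whole reads were not recovered: for single-transcript genes over 2000 bases, between 78.3% and 81.7% of the small values came out whole within 0.15, and no count test was run.

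Values were used as deposited, as log2(FPKM + 1), which understates the change of low genes. Genes averaging 1 FPKM or more (11603) entered limma 3.58.1 under R 4.3.3, with a mean-variance trend in eBayes, two-sided tests and no replicate term; the fit had been tested on simulated data. Single values (step totals, isoform shares, isoform ratios) were compared by exact permutation tests in Python 3.11.15 with numpy 2.4.6 and scipy 1.17.1, where the smallest p that 3 against 3 allow is 0.1. The 9 isoform ratios have adjusted p = 0.1 over the 9 pairs by that permutation test. No pair of libraries shared over 0.3% of values. The members, gene lists and tests were chosen with earlier results of these data known. Any member may be named, and in the adjoining lists the 3 largest called changes without overlap, of which 1 is not reported here. Alternatives were pseudocount 0.1, no filter or a mean of 5 FPKM, 3 scalings, a replicate block, no trend, and each library left out.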

Additional observations from a re-analysis of the deposited data

How the results depend on the processing

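All 31 called genes of the route kept their direction and their call under each of the 14 alternatives in which they were tested (Slc2a3 was not tested at a mean of at least 5 FPKM). The higher calls numbered 25 at that filter, 27 with no filter, where Hk3 was added (limma adjusted p = 0.0155), and 26 under each of the others. The lower calls were 8 in place of 5 after quantile normalization and after equal column totals, where Pfkfb2, Pfkfb4 and Pdha1 were added, and 5 or 6 otherwise. Those 2 scalings moved the share of higher calls among all called genes to 38.8% and 34.5%, against 52.4%. They also turned the uncalled difference of Pdk3, to -0.019 after quantile normalization and -0.023 after equal column totals, and equal column totals turned that of the summed PDH kinases to -1.49. The causes were not tested. The Pdk3 share differed by -1.12 to 0.64 percentage points with 1 library left out. With a pseudocount of 0.1 the ratio of Slc2a1 to Slc2a3 reversed, to -0.12 (the cause was not tested), and no order of those 2 responses is given above. With 1 library left out, genes of the adjoining lists were higher in 21 to 23 cases and lower in 18 to 23. With Eno1b included, chosen after seeing the data, the enolase results kept their direction.

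Higher calls in single adjoining lists moved from 1 to 2 in other glycolysis genes with no filter or without Sema4D replicate 3. They moved from 1 to 2 in the pyruvate dehydrogenase list under the replicate block, without Sema4D replicate 3 and without control replicate 1, and from 4 to 1 in the glycogen list at a mean of at least 5 FPKM, where fewer genes were tested. Same-numbered libraries had deviations correlated at 0.14, -0.08 and -0.05, so that replicate number gave no steady pairing. Sema4D replicate 2 with control replicate 3 stood at 0.10 and Sema4D replicate 3 with control replicate 2 at 0.14. The remaining pairs were negative, and a pairing under other numbers was not tested. With the replicate block the route still had 26 higher and 5 lower genes. Genes under 1 FPKM, such as Hk3 and Slc2a4, rest on few fragments, since 1 fragment on 1 kilobase was worth 0.0562 to 0.0746 FPKM.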
